A study of Homo sapiens with 12 samples.

Results

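OE33 control cells were compared with OE21 control cells, which are 6 of the 12 arrays of the series, 3 of each line, chosen by their titles. OE33 is an established cell line from an adenocarcinoma of the Barrett's esophagus, and OE21 is an established cell line from a squamous cell carcinoma of the esophagus. All 6 cultures grew in RPMI 1640 medium with 10% fetal calf serum and received a scrambled negative control siRNA in 2 transfections. They gave RNA 72 h after the first transfection. The labels give an siRNA dose of 100 nM, without saying explicitly that it also holds for the control siRNA. The series was made to follow STAT3 knock-down in each line, and the 6 arrays of cells given STAT3 siRNA are outside the comparison. OE33 cells were transfected with DharmaFECT and OE21 cells with siPORT NeoFX, so the effect of the line and that of the reagent cannot be told apart. The 3 cultures of each line were independent experiments, per the series' design text. Each carcinoma type is represented by 1 cell line, so n counts cultures of a line and not tumours, and p-values measure the spread between cultures. The values below are log2 normalised intensities of Illumina BeadChip probes.

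As background, the esophagus is lined by a stratified squamous epithelium. Its basal cells make the keratin pair KRT5 and KRT14, and its upper cells build desmosome-rich layers and proteins of the cornified envelope. In Barrett's esophagus a columnar epithelium stands in its place. Columnar cells carry the simple keratins KRT7, KRT8, KRT18 and KRT19, seal their apical border with tight junctions and secrete mucus, under transcription factors of the gut endoderm such as CDX2 and the FOXA family.

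The lines differed over a large part of the measured genes. Of 11303 genes tested, 5223 (46.2%) passed an adjusted p of 0.05 in limma's moderated test and are termed called. Of these, 2655 (23.5%) were higher and 2568 (22.7%) lower in OE33. A difference of at least 2-fold was called for 1528 higher genes (13.5%) and 1546 lower genes (13.7%). The median difference of all genes was 0.02 and the median absolute difference 0.57 on the log2 scale. The median SD between the 3 arrays of a line was 0.25 in OE33 and 0.22 in OE21. Correlations across probes were 0.966 to 0.99 within OE33, 0.976 to 0.987 within OE21 and 0.825 to 0.857 between the lines. OE33 control 2 stood apart from the other OE33 arrays on the second principal component, which held 7.9% of the variance against 82.3% for the first, and without that array 5531 genes were called. Another 363 tested genes were detected on OE33 arrays only and 591 on OE21 arrays only. Such a gene entered the test through 1 line, so its difference is given as a bound. For several lists, counts are given also for members detected on all 6 arrays. Among the 8791 genes detected on all 6 arrays, 3747 (42.6%) were called, 2025 (23%) higher and 1722 (19.6%) lower in OE33.

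For some genes only part of a line's arrays detected the probe, and the value of that line then lies near background and is not a bound. In OE33, 1 of 3 arrays detected AKR1B10, CALML3, DKK3, GCNT1, KLK12, MAF, PI3, S100A8, SOX2, SPRR2E and SPRR4, and 2 of 3 detected DST, GPX2, IL20RB, OAS2, SNAI2 and SOCS1. In OE21, 1 of 3 arrays detected ACSL5, CLDN3, KRT7 and TBC1D3C, and 2 of 3 detected CXCL2, EREG, HOXB8, LIF, MMP7, MNX1, PLIN2 and SCEL.

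**Figure D1:**
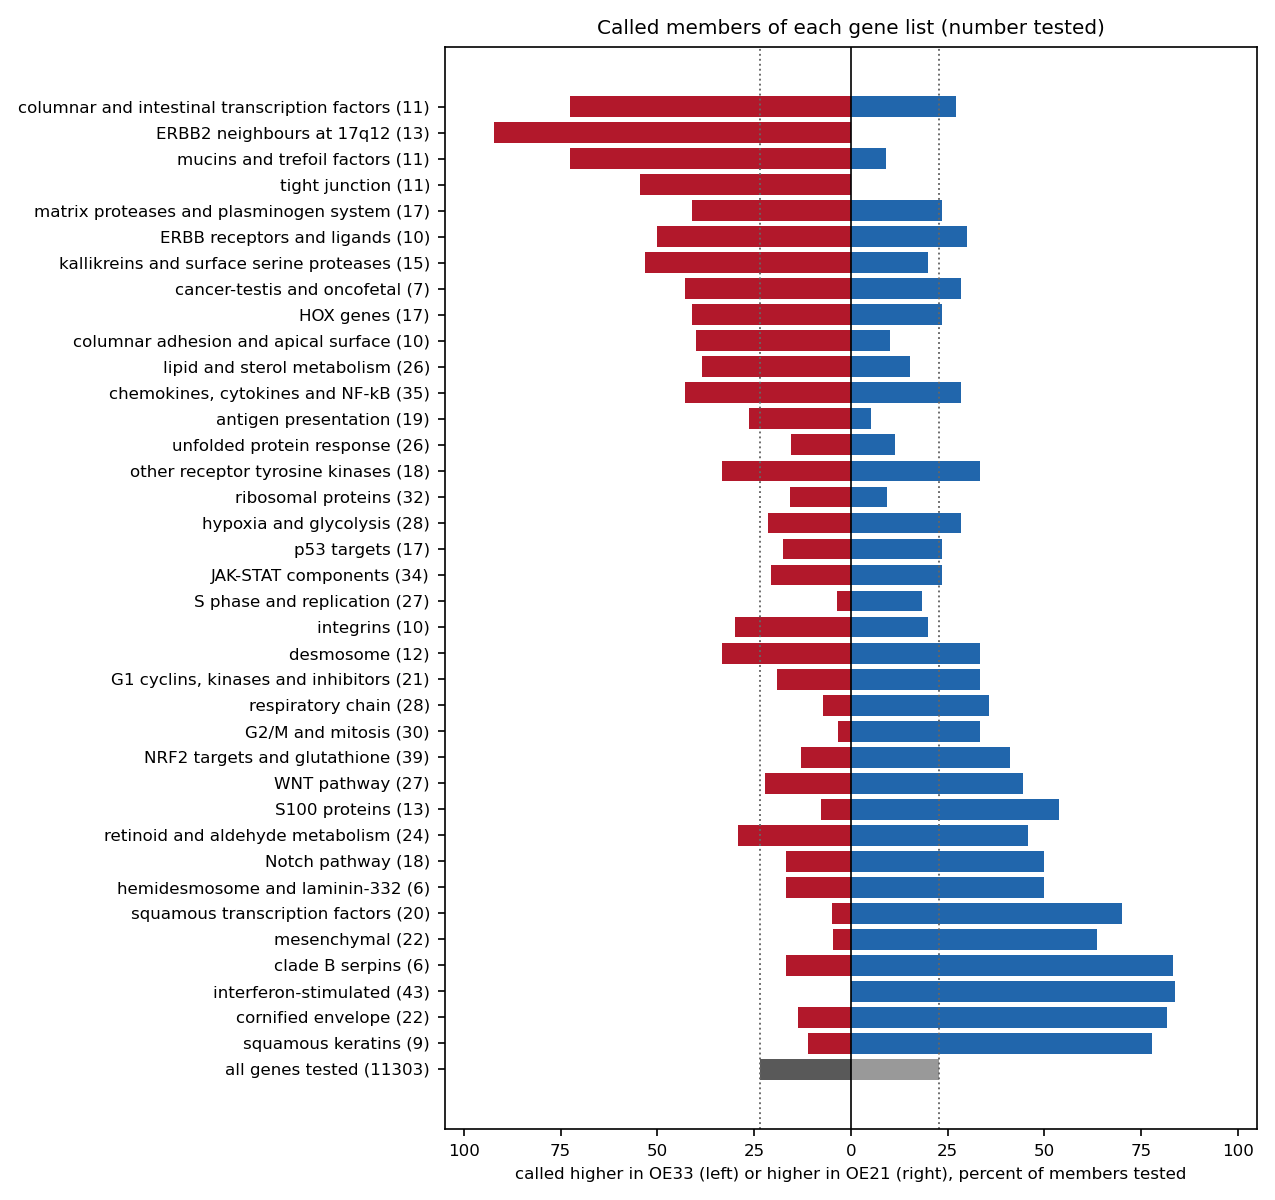
For each gene list with at least 5 tested members, the share of tested members called higher in OE33 (red, to the left) and called lower in OE33, that is higher in OE21 (blue, to the right), in percent, with the number tested in brackets. The bottom bar and the dotted lines give all 11303 genes (23.5% and 22.7%), and lists are ordered by their median difference, from squamous keratins at the bottom to columnar transcription factors at the top.

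The 4 marker keratins separated the lines along their labelled carcinoma types. KRT5, the type II keratin of squamous basal cells, read 4.16, 4.29 and 4.34 in OE33 and 13.30, 12.42 and 12.40 in OE21. It was detected on none of the OE33 arrays and was at least 297-fold lower there (limma adjusted p = 6.54e-07). KRT14, its type I partner, read 4.44, 4.20 and 4.29 in OE33 against 11.78, 11.29 and 10.43 in OE21, at least 102-fold lower. In the opposite direction, KRT8 of simple epithelium read 11.75, 12.39 and 11.94 in OE33 against 4.21, 4.70 and 4.23 in OE21, where no array detected it, and it was at least 173-fold higher (adjusted p = 6.2e-07). KRT7 read 11, 12.29 and 11.23 in OE33 against 4.27, 5.17 and 4.51 in OE21, a log2 difference of 6.86 (SE 0.37). Only 1 of the 3 OE21 arrays detected KRT7.

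Other keratins split the same way with exceptions. Of 15 squamous keratins, 12 had a named probe, 9 were tested, 7 were lower and 1 was higher in OE33. Of the 5 detected on all 6 arrays, 3 were lower and 1 higher. KRT6C, a keratin of activated and wound-edge squamous cells, was at least 208-fold lower, although its probe may also read its near-identical paralogs. KRT13, which marks the suprabasal layers of the esophagus, read 6, 4.84 and 6.13 in OE33 against 12.13, 10.55 and 10.00 in OE21, with a log2 difference of -5.24 (SE 0.56). KRT16, the partner of KRT6 in activated cells, differed by -3.60 (SE 0.44). KRT80 was the squamous-list keratin that was higher, by 1.58 (SE 0.53, adjusted p = 0.0423), and no keratin of that list was called higher in 4 of the 6 fits that left out 1 array, those without OE33 control 2, OE33 control 3, OE21 control 1 or OE21 control 3. KRT15, a basal keratin, read 10.85, 10.23 and 10.58 in OE33 against 13.09, 9.77 and 10.33 in OE21, and the lines overlapped.

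Of 6 simple keratins listed, 4 were tested, and KRT7, KRT8 and KRT19 were higher in OE33. KRT19 read 14.11, 14.22 and 14.10 in OE33 against 12.48, 10.57 and 10.87 in OE21, so it was detected in both lines and 7.12-fold higher in OE33. KRT18, the usual partner of KRT8, depended on the probe. Its brighter probe read 9.30, 7.78 and 9.38 in OE33 against 6.75, 7.58 and 7.5 in OE21, a difference of 1.55 (SE 0.44). Its other detected probe was lower in OE33 by 0.88 on the log2 scale (a difference of -0.88), with readings of 5.79, 5.94 and 5.96 in OE33 against 6.84, 6.71 and 6.79 in OE21. Of all single probes tested, 40.8% were called. No direction is given for KRT18 as a gene. Of the other squamous and columnar markers, DSG3 and SERPINB5 were lower in OE33, CDH17 and TFF1 were not detected on enough arrays to be tested, and TP63 has no named probe in the annotation used.

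**Figure D2:**
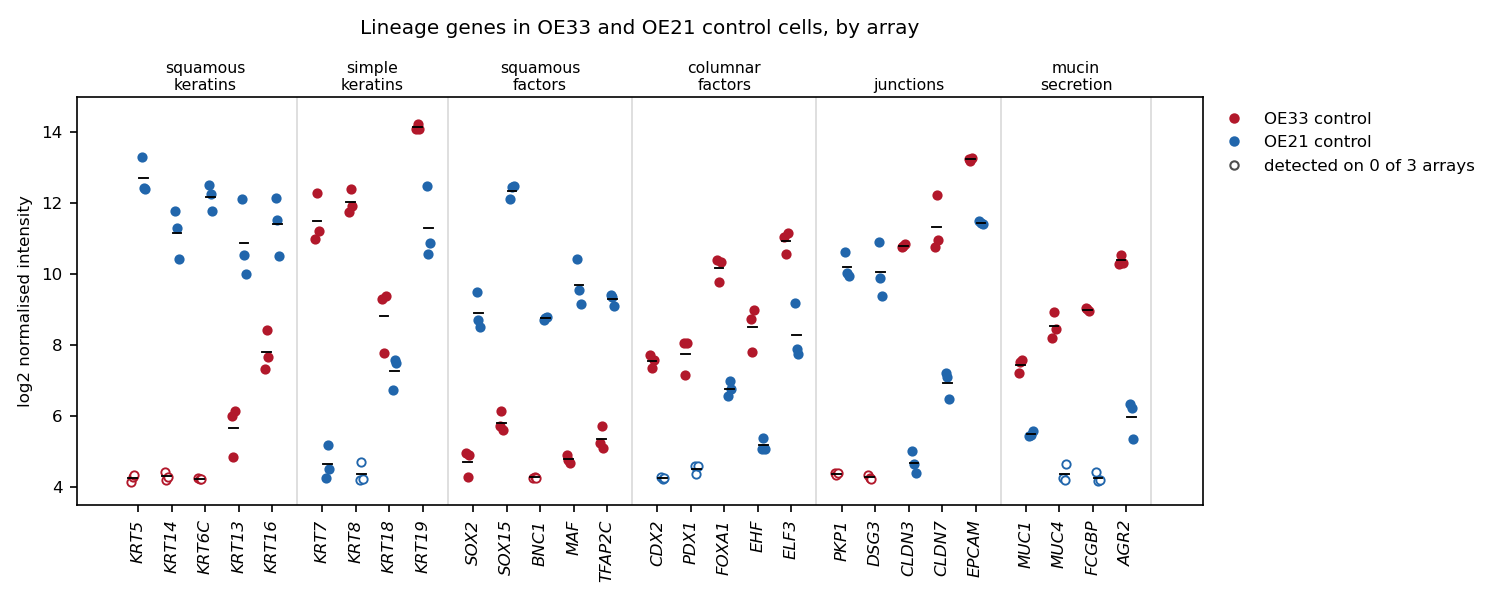
Log2 normalised intensity (y axis) of 28 lineage genes on each array, OE33 control in red to the left and OE21 control in blue to the right of each gene, with group means as black bars. Open circles mark a line in which no array detected the gene. KRT5, KRT14 and KRT6C lie between 10.43 and 13.30 in OE21 and were not detected in OE33, and CDX2, PDX1, MUC4 and FCGBP were detected in OE33 only.

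Transcription factors of the squamous lineage were mostly lower in OE33. Of 24 listed, 20 were tested, 14 were lower and 1 was higher, and of the 9 detected on all 6 arrays 5 were lower and none higher. SOX15, a SOX factor of stratified epithelia that was not on the list, read 5.71, 6.14 and 5.61 in OE33 against 12.12, 12.45 and 12.48 in OE21, which is 92.5-fold lower in OE33 (limma adjusted p = 6.54e-07). SOX2, which maintains esophageal progenitor cells, read 4.96, 4.29 and 4.90 in OE33 against 9.49, 8.72 and 8.52 in OE21. BNC1, a zinc finger protein of basal keratinocytes, was at least 19.3-fold lower. TFAP2C, an AP-2 factor of keratinocytes, differed by -3.93 (SE 0.21) and MAF by -4.93 (SE 0.31). PAX9, a regulator of foregut and esophageal epithelium, differed by -1.91 (SE 0.32), and KLF5 by -1.03 (SE 0.20). The groups did not overlap for any of these 7 genes, which was also so for 58.2% of all genes tested.

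Factors of the gut endoderm showed the opposite balance. Of 26 columnar and intestinal factors, 21 had a probe, 11 were tested and all 11 were called, 8 of them higher and 3 lower in OE33. Of the 6 detected on all 6 arrays, 4 were higher and 2 lower. CDX2, the intestinal homeobox factor, read 7.72, 7.36 and 7.57 in OE33 and 4.28, 4.23 and 4.24 in OE21, and was at least 8.14-fold higher. PDX1, a homeobox factor of duodenum, antrum and pancreas, was at least 9.16-fold higher. FOXA1, a forkhead factor of endoderm, read 10.41, 9.77 and 10.35 in OE33 against 6.57, 7 and 6.75 in OE21, with a difference of 3.40 (SE 0.22). The epithelial ETS factors EHF and ELF3 differed by 3.34 (SE 0.31) and 2.65 (SE 0.38), and MNX1 by 3.18 (SE 0.32). FOXA2, a close relative of FOXA1, ran the other way, with 7.19, 6.01 and 7.22 in OE33 against 7.73, 9.56 and 9.62 in OE21 (difference -2.16, SE 0.55, adjusted p = 0.0137). As each array was left out in turn, the number of lower factors ranged from 0 (without OE21 control 3) to 3 and the number of higher ones from 6 to 7.

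Among desmosome genes, 12 of 15 were tested, with 4 higher (33.3%) and 4 lower (33.3%) in OE33, against 23.5% and 22.7% of all genes. The lower members were PKP1, DSG3, DSC3 and DSC2. Among the higher ones was EVPL, envoplakin, a plakin of stratified epithelium, which was 2.27-fold higher. The plakophilin PKP1 read 4.40, 4.33 and 4.40 in OE33 against 10.62, 10.03 and 9.94 in OE21, at least 52.1-fold lower. Its family did not share that direction, as other plakophilins were among the higher members. The cadherin DSG3, the pemphigus antigen, was at least 47.5-fold lower, and DSC3 differed by -3.08 (SE 0.25). The linker JUP, plakoglobin, which also serves adherens junctions, read 13.36, 14.10 and 13.39 in OE33 against 11.78, 11.60 and 11.27 in OE21, 4.19-fold higher. Desmoplakin, DSP, which ties these plaques to keratin, read 7.70, 7.98 and 8.07 in OE33 and 8.86, 8.73 and 8.03 in OE21, and the groups overlapped.

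Of 20 tight junction genes, 17 had a probe and 11 were tested. Of these, 6 were higher in OE33 and none was lower, against 23.5% and 22.7% of all genes. CLDN3, a claudin of columnar epithelia, read 10.77, 10.80 and 10.85 in OE33 against 5.02, 4.64 and 4.40 in OE21, where 1 array detected it, a difference of 6.12 (SE 0.20). CLDN7 differed by 4.39 (SE 0.40) and CLDN23 by 4.12 (SE 0.21), and the scaffold protein cingulin, CGN, by 2.50 (SE 0.31). The epithelial adhesion molecule EPCAM read 13.26, 13.18 and 13.28 in OE33 against 11.51, 11.45 and 11.41 in OE21, 3.44-fold higher. P-cadherin, CDH3, read 8.90, 8.70 and 8.85 in OE33 against 11.57, 11.64 and 11.36 in OE21, 6.53-fold lower, while E-cadherin, CDH1, was not called (difference 0.37, SE 0.21, adjusted p = 0.187). The microvillus proteins EZR and PLS1 were 3.12-fold and 4.17-fold higher. Of the 25 genes for columnar adhesion and apical surface that hold EPCAM, EZR and PLS1, 10 were tested, 4 were higher and 1 was lower, and 14 with a probe were not detected on enough arrays. The 5 that were not called included the carcinoembryonic antigen family members CEACAM1 (difference 0.55, SE 0.33) and CEACAM6 (difference 0.62, SE 0.59), whose groups overlapped.

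Hemidesmosome genes anchor basal cells to the basement membrane. Of 9 listed, 6 were tested, 3 were lower (50%) and 1 was higher (16.7%) in OE33, against 22.7% and 23.5% of all genes. The count of 3 includes the linker DST, through its brightest probe. DST had probes called in opposite directions, 0.74 for 1 probe and -2.04 for another, so no direction is given for it as a gene. The laminin chain LAMB3 was lower by a narrow margin (difference -1.41, SE 0.50, adjusted p = 0.0494), with 1 OE33 array at 11.46 inside the OE21 range of 11.08 to 12.09. Leaving out 1 array at a time gave 1 to 4 lower members. COL7A1, the collagen of anchoring fibrils, was not on the list. It read 5.11, 4.32 and 4.48 in OE33 against 11.58, 11.45 and 11.15 in OE21 and was at least 104-fold lower. The tetraspanin CD151 was 2.58-fold higher. Of 10 tested integrins, 3 were higher (30%) and 2 lower (20%), near the shares of all genes, and leaving out 1 array at a time gave 1 to 3 higher and 0 to 2 lower. Among them was ITGB5, a vitronectin receptor chain, which was 2.24-fold higher.

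Genes of the cornified envelope, the cross-linked protein layer of squamous cells, were lower in OE33 as a group. Of 30 listed, 28 had a probe, 22 were tested, 18 were lower and 3 higher, and of the 8 detected on all 6 arrays 7 were lower and 1 was higher. The median difference of the 22 was -3.31, against 0.02 for all genes. SPRR1B, a small proline-rich envelope protein, read 5.96, 7.94 and 6.22 in OE33 against 10.94, 11.55 and 10.82 in OE21, 21-fold lower. SPRR2A read 5.04, 8.55 and 6.04 in OE33 against 9.93, 10.70 and 10.31 in OE21, 13.7-fold lower. In both genes OE33 control 2 was the highest of the OE33 arrays and still below every OE21 array. The elastase inhibitor PI3, elafin, differed by -6.87 (SE 0.29), with 1 of 3 OE33 arrays detecting it. The calmodulin-like CALML3 differed by -5.58 (SE 0.32), and LCE3D was at least 20-fold lower. The sciellin gene SCEL was among the 3 that were higher, at 7.42, 7.26 and 7.44 in OE33 against 4.80, 5.36 and 5.4 in OE21. SPRR2 genes are near-identical, so a probe may read more than 1 of them.

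The 250 bases before the transcription start of SPRR1B and SPRR2A are shown because they are the 2 members detected in both lines with the largest differences whose promoter holds the AP-1 letters. They come from RefSeq on GRCh38.p14, SPRR1B at chr1:153030953-153031202 on the plus strand and SPRR2A at chr1:153057513-153057762 on the minus strand. Both are written 5′ to 3′ toward the start. Capitals mark TGANTCA, the AP-1 motif, and in SPRR2A also the TATA box letters TATAAA.
SPRR1B: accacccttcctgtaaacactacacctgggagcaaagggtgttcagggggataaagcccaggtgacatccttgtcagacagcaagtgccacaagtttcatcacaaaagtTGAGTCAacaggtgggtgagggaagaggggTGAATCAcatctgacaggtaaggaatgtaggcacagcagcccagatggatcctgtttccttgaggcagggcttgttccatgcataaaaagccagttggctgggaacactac
SPRR2A: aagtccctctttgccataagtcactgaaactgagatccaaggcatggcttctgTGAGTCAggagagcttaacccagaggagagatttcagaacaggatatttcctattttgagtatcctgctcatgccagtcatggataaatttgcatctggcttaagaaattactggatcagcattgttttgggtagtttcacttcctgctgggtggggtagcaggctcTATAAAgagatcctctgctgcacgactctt
Both strands were searched. The AP-1 letters stood in 10 of the 23 promoters of cornified envelope genes with an entry (43.5%), against 6.6% of all 27305 promoters in the table. The TATA box letters stood in 10 of 23 (43.5%) against 11.1%. The AP-1 matches begin 141 and 111 bases before the start in SPRR1B and 197 bases before it in SPRR2A, whose TATA box letters begin 30 bases before the start. A match is a description of letters and does not show that a factor binds.

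Members of the S100 and serpin families were also lower. The alarmin S100A8 read 4.49, 4.62 and 4.95 in OE33 against 11.51, 11.38 and 10.15 in OE21, 80.1-fold lower, with 1 OE33 array detecting it. Its partner S100A9 read 6.95, 7.51 and 7.03 in OE33 against 11.50, 11.91 and 10.98 in OE21. S100A2, a p63-regulated S100 protein of squamous basal cells, was 18.1-fold lower. Of 13 tested S100 genes, 7 were lower and 1 higher. The member counted as higher, through its brightest probe, had probes called in opposite directions, 1.43 for 1 probe and -0.83 for another. No direction is given for it as a gene. Leaving out 1 array at a time gave 5 to 7 lower and 0 to 3 higher, with 5 lower and 0 higher in 4 of the 6 fits and with the replicate number as a block. Of 6 tested clade B serpins, 5 were lower, and 3 to 5 were as each array was left out in turn. SERPINB5, maspin, read 8.80, 8.48 and 8.52 in OE33 against 11.66, 11.58 and 11.56 in OE21, 8-fold lower, and SERPINB13, headpin, was at least 40.9-fold lower. SERPINB1, an inhibitor of neutrophil proteases, was 3.41-fold higher.

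Proteases of the cell surface included members in both directions. ST14, the membrane protease matriptase, read 9.79, 10.82 and 10.02 in OE33 against 6.76, 6.80 and 6.08 in OE21, 12.7-fold higher. PRSS8, prostasin, which acts with matriptase, read 11.42, 12.45 and 11.68 in OE33 against 8.44, 8.44 and 7.32 in OE21, 13.8-fold higher. TMPRSS2 was at least 5.11-fold higher. SCNN1A, a subunit of the epithelial sodium channel that surface proteases can activate, was not on the protease list. It read 12.17, 11.89 and 12.35 in OE33 against 6.80, 6.70 and 6.18 in OE21, a difference of 5.58 (SE 0.22). Among the kallikreins of that list, KLK5 was 8.7-fold higher, and KLK10 and KLK12 were 2.44-fold and 5.17-fold lower. Of 24 listed genes 15 were tested, 8 were higher and 3 lower. PRSS3, mesotrypsin, which was not on the list, was at least 107-fold higher.

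Genes of mucus and its secretion were mostly higher in OE33 where they were measured. Of 31 listed, 28 had a probe and 11 were tested, so 17 members with a probe were detected on fewer than 3 arrays. Of the 11, 8 were higher and 1 lower, and of the 6 detected on all 6 arrays 4 were higher and none lower. AGR2, a disulfide isomerase of mucus-secreting cells, read 10.29, 10.56 and 10.33 in OE33 against 6.34, 6.23 and 5.35 in OE21, 21.4-fold higher. FCGBP, a mucus-gel protein, was at least 22.2-fold higher and the membrane mucin MUC4 at least 15.8-fold. MUC1 read 7.21, 7.52 and 7.58 in OE33 against 5.44, 5.46 and 5.57 in OE21, 3.86-fold higher. The branching enzyme of mucin glycans GCNT3 was 5.9-fold higher, and the related GCNT1 4-fold lower. GALNT5, an enzyme that starts mucin-type glycans and was not on the list, was at least 54.6-fold higher. Among 20 genes of gastric epithelium, 3 were tested.

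Mesenchymal genes were lower in OE33. Of 36 listed, 22 were tested, 14 were lower and 1 was higher, and of the 12 detected on all 6 arrays 6 were lower and 1 higher. LGALS1, galectin-1, read 5.29, 5.01 and 5.09 in OE33 against 11.72, 11.68 and 11.66 in OE21, a difference of -6.55 (SE 0.16). Vimentin, VIM, read 6.65, 5.97 and 7.10 in OE33 against 10.07, 10.91 and 11.14 in OE21, 17.6-fold lower. SNAI2, a zinc finger repressor of E-cadherin that basal squamous cells also make, read 4.79, 5.34 and 4.75 in OE33 against 10.65, 10.95 and 11.22 in OE21, 63-fold lower. TGFBI, a matrix protein induced by TGF-beta, read 10.07, 7.83 and 9.87 in OE33 against 13.69, 13.63 and 13.33 in OE21. The basement membrane collagen COL4A1 was at least 27-fold lower and the matrix protein THBS1 at least 33.3-fold lower. EFEMP1, fibulin-3, which was not on the list, was at least 107-fold lower. The receptor TGFBR2 was the member that was higher, 2.01-fold, and it was not called without OE21 control 1 or without OE21 control 2. Of 11 fibroblast genes, 10 were not tested, and COL1A2, the one tested, was not detected on any OE33 array and read 5.01, 5.67 and 4.91 in OE21, so the fibroblast list was at or near background in both lines.

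Matrix proteases differed gene by gene. MMP7, matrilysin, a protease of glandular epithelium, read 13.14, 12.12 and 13.13 in OE33 against 5.13, 6.23 and 5.01 in OE21, a difference of 7.34 (SE 0.40). PLAT, tissue plasminogen activator, was at least 19.4-fold higher, and PLAU, urokinase, 3.86-fold. The inhibitors TIMP2 and TIMP1 were 10.8-fold and 4.04-fold higher. MMP28, MMP9 and MMP10 were at least 11.5-fold, 10-fold and 9.52-fold lower. MMP9 read 4.17, 4.41 and 4.20 in OE33 against 6.27, 9.97 and 7.22 in OE21, so the OE21 arrays lay far apart and all above the OE33 arrays. Of 17 tested genes of that list 7 were higher and 4 lower, and on the STAT3 siRNA arrays 7 were lower.

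The ERBB receptors were divided between the lines. ERBB2, the ligand-less receptor that pairs with the others, read 11.80, 11.93 and 11.89 in OE33 against 7.88, 8.05 and 7.52 in OE21, 16.7-fold higher (limma adjusted p = 2.59e-06). EGFR read 9.19, 10.11 and 9.32 in OE33 against 12.60, 12.78 and 12.97 in OE21, 9.48-fold lower (adjusted p = 4.77e-05). ERBB3 was 2.22-fold higher. Of the ligands, NRG1, which binds ERBB3 and ERBB4, was at least 16.9-fold lower, while the EGFR ligands TGFA and EREG were 4.32-fold and 6.27-fold higher. Among other receptor tyrosine kinases, MET, the receptor for hepatocyte growth factor, read 12.63, 12.65 and 12.52 in OE33 against 9.29, 9.47 and 9.29 in OE21, 9.48-fold higher, and MST1R was 4.31-fold higher. FGFR3 read 6.68, 6.45 and 6.86 in OE33 against 12.21, 11.06 and 10.97 in OE21, 26.9-fold lower, and FGFBP1, which releases fibroblast growth factors from the matrix, was 28.4-fold lower.

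ERBB2 lay in a stretch of neighbours of which nearly all were higher. Of 17 listed neighbours at 17q12, not counting ERBB2, 12 were tested, all 12 were detected on all 6 arrays, 11 were higher and none was lower, with a median difference of 2.14. GRB7, an adaptor that binds ERBB2, read 10.69, 11.30 and 10.85 in OE33 against 5.44, 6.29 and 4.96 in OE21, 41.7-fold higher. STARD3, MIEN1, PSMD3 and ORMDL3 were 8.27-fold, 8.67-fold, 9.43-fold and 8.93-fold higher. MED1 was 3.18-fold higher at the other end. GSDMA was not called (difference -0.37, SE 0.20, adjusted p = 0.168). Copy number was not measured here.

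Tested genes were then placed in order along the chromosomes with the GRCh38.p14 gene table, and runs of at least 4 neighbours that were all called and at least 2-fold in one direction were listed. Of 11289 genes placed, such runs numbered 20 higher and 32 lower in OE33. The longest was 17 genes on chromosome 7 from SYPL1 to TMEM168, with a median difference of 2.35 and LAMB1, a laminin chain, at its top (10.15, 9.73 and 9.92 in OE33 against 6.76, 6.25 and 6.34 in OE21). A run of 6 from MET to FAM3C and a run of 8 from SRI to CDK14, with STEAP2 at its top, were on the same chromosome and also higher. On chromosome 17, 10 neighbours from MED1 to ORMDL3 (median 2.83) and 8 from TADA2A to EPOP (median 2.39, top TBC1D3C, a member of a multicopy family) were higher. On chromosome 1, 13 neighbours from SPRR4 to S100A8 were lower, with a median of -3.98 and SPRR2E at the bottom; this run holds paralogs whose probes may share signal. On chromosome 18 the desmosomal cadherins DSC3, DSC2 and DSG3 with CDH2 and KCTD1 formed a run of 5, and 5 clade B serpins from SERPINB5 to SERPINB8 formed another, both lower. On chromosome 11 a run of 12 from SHANK2 to INPPL1 (median -1.81) and a run of 5 from CCND1 to PPFIA1 (median -1.79) were lower.

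**Figure D3:**
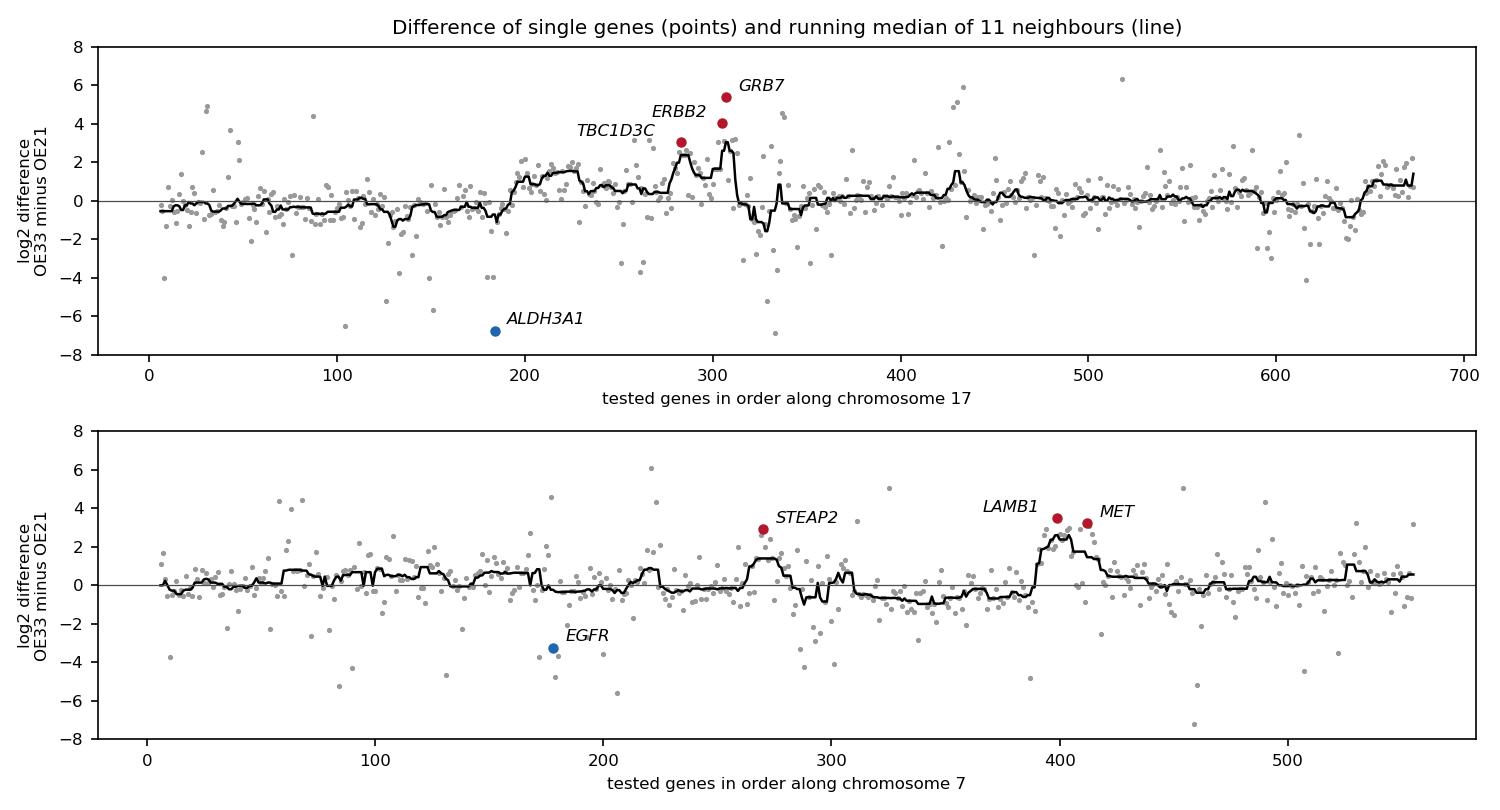
Log2 difference, OE33 minus OE21, of single tested genes (grey points) in their order along chromosome 17 (upper panel) and chromosome 7 (lower panel), with the running median of 11 neighbouring genes as a black line. The line reaches 3.05 around GRB7 and 2.37 around TBC1D3C on chromosome 17, and 2.61 around LAMB1 on chromosome 7.

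Genes of the G1 phase included the 9p21 inhibitors. CDKN2A, which encodes p16INK4A and p14ARF, read 10.79, 10.55 and 10.91 in OE33 against 4.36, 4.80 and 4.25 in OE21, where no array detected it, and was at least 69.9-fold higher. CDKN2B, p15, was at least 11.2-fold higher. MTAP, their neighbour that recycles methylthioadenosine, was detected in both lines, at 10.62, 10.61 and 10.72 in OE33 against 8.80, 9.22 and 9.16 in OE21. CCND1, cyclin D1, read 12.05, 12.59 and 12.20 in OE33 against 13.04, 14.09 and 13.82 in OE21, 2.58-fold lower. Its chromosome 11 neighbours ANO1, FADD and PPFIA1 were 9.74-fold, 5.35-fold and 2.93-fold lower. Of the 21 tested genes of that list, 4 were higher (19%) and 7 lower (33.3%), against 23.5% and 22.7% of all genes. In either direction 52.4% were called, against 46.2% of all genes.

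Genes of S phase, mitosis and the ribosome were called at or below the rate of all genes (46.2%). Of 27 tested S phase genes 1 was higher and 5 were lower (22.2%), with 0 to 2 higher and 1 to 7 lower as each array was left out (1 lower without OE21 control 2 or 3). Of 32 ribosomal protein genes 5 were higher and 3 lower (25%), with 0 to 3 lower on leaving out 1 array. RPL14 stood out, at 11.08, 10.83 and 11.04 in OE33 against 8.33, 8.5 and 8.16 in OE21, 6.3-fold higher. Of 30 tested genes of G2 and mitosis 1 was higher and 10 were lower, with PTTG1, securin, 2.54-fold and CCNB1, cyclin B1, 2.51-fold lower. That count depended on single arrays: without OE33 control 2 it was 4 higher, and without OE21 control 3 it was 5 lower. On the STAT3 siRNA arrays 14 were higher and 7 lower. A test of whether the difference between the lines changed with STAT3 siRNA called 0 of 12322 genes. The separate counts therefore do not show that these genes depended on the treatment. OE33 control 2 read 8.67 for CCNB1 against 9.61 and 9.22 on the other OE33 arrays. Of 17 p53 targets 3 were higher (17.6%) and 4 lower (23.5%), against 23.5% and 22.7% of all genes. Leaving out 1 array gave 1 to 2 higher. Among the lower p53 targets was SFN, 14-3-3 sigma, an epithelial protein that was 4.95-fold lower.

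Interferon-stimulated genes were lower in OE33 almost throughout. Of 44 listed, 43 were tested, 36 were lower and none was higher, against 22.7% and 23.5% of all genes. Of the 37 detected on all 6 arrays 30 were lower. The median difference of the 43 was -2.20, and 33 to 37 were lower as each array was left out in turn. IFI6, an antiviral membrane protein, read 8.37, 9.29 and 8.69 in OE33 against 14.19, 13.66 and 14.06 in OE21, 36.4-fold lower. IFI44L read 6.92, 5.35 and 6.78 in OE33 against 12.12, 11.08 and 11.92 in OE21, 40.9-fold lower. IFIT1, which binds viral RNA caps, read 7.94, 7.89 and 8.13 in OE33 against 12.97, 11.93 and 12.48 in OE21, 22.2-fold lower. OAS2, a sensor enzyme for double-stranded RNA, read 4.55, 6.71 and 5.38 in OE33 against 12.66, 11.53 and 12.37 in OE21. MX1 and ISG15 were bright in both lines and 7.82-fold and 4.04-fold lower in OE33. IRF9, a subunit of the interferon-activated complex ISGF3, was 6.19-fold lower. Among the 7 that were not called, RIGI read 6.83, 6.81 and 6.78 in OE33 and 7.11, 6.70 and 7.42 in OE21. The transfection reagent moved with the line, and its part in these values cannot be told apart from that of the line.

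**Figure D4:**
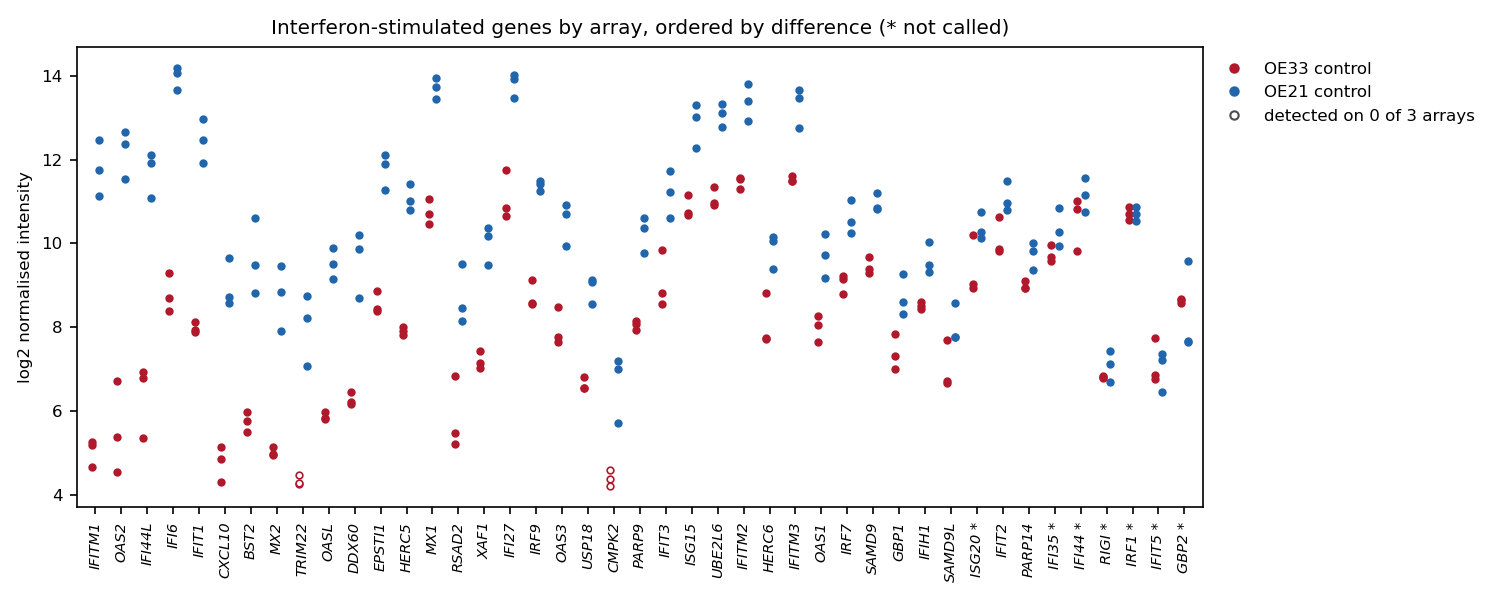
Log2 normalised intensity (y axis) of the 43 tested interferon-stimulated genes on each array, OE33 control in red to the left and OE21 control in blue to the right of each gene, ordered from the most negative difference. Open circles mark a line in which no array detected the gene, and an asterisk marks the 7 genes that were not called. The red points lie below the blue points in the 36 called genes.

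The 250 bases before the start of IFI44L, IFI6 and IFIT1 are shown because these 3 are the list members with the largest differences among those detected on all 6 arrays. They are RefSeq sequence on GRCh38.p14, IFI44L at chr1:78620198-78620447 on the plus strand, IFI6 at chr1:27672193-27672442 on the minus strand and IFIT1 at chr10:89392373-89392622 on the plus strand. Each is written 5′ to 3′ toward the start. Capitals mark GAAANNGAAA, the core of the interferon response element, on either strand (in IFIT1 as TTTCNNTTTC), and in IFI6 also a GC box, GGGCGG.
IFI44L: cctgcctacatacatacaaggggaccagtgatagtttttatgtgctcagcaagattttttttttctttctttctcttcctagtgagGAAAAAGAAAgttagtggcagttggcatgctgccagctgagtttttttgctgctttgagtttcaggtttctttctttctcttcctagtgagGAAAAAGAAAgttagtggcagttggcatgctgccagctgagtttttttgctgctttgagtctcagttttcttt
IFI6: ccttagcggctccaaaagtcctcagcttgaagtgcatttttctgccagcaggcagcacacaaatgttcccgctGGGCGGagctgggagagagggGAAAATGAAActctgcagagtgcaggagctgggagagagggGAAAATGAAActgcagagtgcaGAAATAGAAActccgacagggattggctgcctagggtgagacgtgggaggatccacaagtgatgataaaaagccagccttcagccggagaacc
IFIT1: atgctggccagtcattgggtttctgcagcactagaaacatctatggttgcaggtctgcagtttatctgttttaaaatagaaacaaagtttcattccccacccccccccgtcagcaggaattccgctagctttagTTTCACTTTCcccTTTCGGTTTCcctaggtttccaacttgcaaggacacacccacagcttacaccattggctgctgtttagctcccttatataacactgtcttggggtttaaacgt
IFI44L held 2 matches in a repeated stretch, IFI6 held 3 and IFIT1 held 2, which begin 116 and 103 bases before its start. The letters stood in 21 of the 35 promoters of listed genes with an entry (60%) and in 839 of all 27305 promoters (3.07%). Within the list they stood in 18 of 28 promoters of genes lower in OE33 (64.3%) and 3 of 6 promoters of genes not called (50%). The GC box letters stood in 42.3% of all promoters.

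Of 19 tested antigen presentation genes 5 were higher (26.3%, against 23.5% of all genes), 1 was lower and 13 were not called. Leaving out 1 array at a time gave 4 to 8 higher, and the STAT3 siRNA arrays gave 4 higher and 3 lower. CD74, the invariant chain of class II molecules, read 9.11, 8.98 and 9.11 in OE33 against 4.50, 4.49 and 4.31 in OE21 and was at least 23.3-fold higher. HLA-C was 3.06-fold higher. HLA-DRA was 1.75-fold lower. IFNGR1, a chain of the interferon gamma receptor, was 3.31-fold higher, and SOCS1 and SOCS2, inhibitors of cytokine signalling, were 3.36-fold and 8.28-fold lower. STAT3 read 9.07, 10.30 and 9.39 in OE33 against 9.27, 8.93 and 9.27 in OE21. Its groups overlapped and the difference of 0.43 (SE 0.31, adjusted p = 0.292) did not pass the test.

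Chemokine and NF-kB genes were called in both directions. Of 35 tested, 15 were higher (42.9%) and 10 lower (28.6%) in OE33, against 23.5% and 22.7% of all genes. CXCL16, a membrane-bound chemokine, read 11.27, 11.36 and 11.32 in OE33 against 8.47, 8.40 and 7.87 in OE21, 8.39-fold higher. LCN2, a bacteriostatic lipocalin, was 8.36-fold and CXCL2, a neutrophil chemokine, 6.83-fold higher. The interleukin-1 family member IL36G, made by squamous cells, was at least 27.4-fold lower. IL1B read 7.54, 5.08 and 7.28 in OE33 against 8.02, 10.35 and 10.20 in OE21, 7.42-fold lower. The complement proteases C1S and C1R were at least 21.3-fold and 12.8-fold lower, and CCL5 was 9.2-fold lower. CXCL8 read 9.41, 11.22 and 10.29 in OE33 and 9.16, 10.31 and 10.60 in OE21, and the groups overlapped.

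Several enzymes of detoxification had some of the largest differences. ALDH3A1, an aldehyde dehydrogenase of cornea and squamous epithelia, read 7.07, 6.67 and 7.07 in OE33 against 14.11, 13.46 and 13.49 in OE21, 108-fold lower. AKR1C2, an aldo-keto reductase and target of the oxidant-responsive factor NRF2, read 7.92, 7.86 and 7.87 in OE33 against 14.13, 13.94 and 14.18 in OE21, 73.7-fold lower. AKR1C2, AKR1C3 and AKR1C4 are near-identical, so their probes may share signal. GPX2, a glutathione peroxidase of epithelia, read 4.86, 4.76 and 5.03 in OE33 against 12.41, 12.26 and 12.59 in OE21, a difference of -7.54 (SE 0.17). AKR1B10 differed by -7.20 (SE 0.46) and NQO1 by -2.01 (SE 0.15). In the opposite direction, the glutathione transferases GSTT1 and GSTO2 were at least 52.7-fold and 135-fold higher. GSTO2 was not on the NRF2 and glutathione list. Of 39 tested genes of the NRF2 and glutathione list 16 were lower and 5 higher, and of the 31 detected on all 6 arrays 12 were lower and 3 higher. For NFE2L2, the gene of NRF2 itself, the groups overlapped (difference 0.48, SE 0.23, adjusted p = 0.116).

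Genes of retinoid and aldehyde metabolism were called in both directions. The retinoic acid-degrading enzymes CYP26A1 and CYP26B1 were at least 5.94-fold and 8.21-fold lower, and the retinal dehydrogenase ALDH1A3 read 13.83, 14.02 and 13.77 in OE33 against 10.80, 11.95 and 12 in OE21, 4.89-fold higher. PLAAT4, a retinoid-induced phospholipase, was 32.4-fold higher. CYP3A5, a drug-metabolising enzyme of gut and liver, read 9.43, 9.10 and 9.52 in OE33 against 4.24, 4.35 and 4.28 in OE21, at least 28.3-fold higher. Of the 24 tested genes 7 were higher and 11 lower. The retinoid genes RDH11, DHRS3, CRABP2 and RARA were among those not called.

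In lipid and energy metabolism, ACSL5, which activates fatty acids in intestinal cells, read 11.94, 11.94 and 11.97 in OE33 against 4.63, 5.15 and 4.29 in OE21, a difference of 7.26 (SE 0.23). The lipid droplet protein PLIN2 read 10.81, 10.52 and 10.60 in OE33 against 5.84, 5.31 and 5.22 in OE21. The fatty acid binding proteins ran the other way: FABP5, of keratinocytes, was 11.3-fold lower and FABP4 at least 43.7-fold lower. Of 26 tested lipid genes 10 were higher and 4 lower. PHGDH and ETFB were not on the lipid list. PHGDH, the entry enzyme of serine synthesis, read 5.38, 6.58 and 5.68 in OE33 against 12.60, 12.39 and 12.48 in OE21, 97.7-fold lower. ETFB, a subunit of the electron transfer flavoprotein of fatty acid oxidation, read 4.28, 4.41 and 4.71 in OE33 against 11.75, 11.60 and 11.59 in OE21, at least 135-fold lower. Among hypoxia-inducible genes, CA12, a carbonic anhydrase, and BNIP3, a mitophagy receptor, were at least 77.2-fold and 65.2-fold lower. Of the 28 tested genes of that list 6 were higher (21.4%) and 8 lower (28.6%), near the 23.5% and 22.7% of all genes. The glycolytic GAPDH was not called (difference -0.20, SE 0.15).

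Developmental signalling genes also differed. The Notch ligands DLL1, JAG1 and JAG2 were lower, DLL1 at 4.33, 4.24 and 4.41 in OE33 against 9.45, 9.46 and 9.45 in OE21, at least 31.1-fold, JAG1 3.62-fold and JAG2 2.88-fold. The Notch target HEY1 was at least 13.3-fold lower. Of 18 tested Notch genes 9 were lower (50%) and 3 higher (16.7%), against 22.7% and 23.5% of all genes. The higher count was 0 (without OE33 control 3) to 4 as each array was left out. Of the 10 Notch genes detected on all 6 arrays, 3 were lower and 2 higher. Of 27 tested WNT genes 12 were lower (44.4%) and 6 higher (22.2%), with 3 to 7 higher on leaving out 1 array. The higher share was near the 23.5% of all genes, and the lower share stood against 22.7%. The balance toward lower WNT genes rested on genes not detected on every array: of the 12 WNT genes detected on all 6 arrays, 4 were higher and 3 lower. DKK3, a secreted dickkopf family member, read 4.39, 5.03 and 4.42 in OE33 against 12.14, 12.12 and 12.10 in OE21, a difference of -7.51 (SE 0.21), with 1 of the 3 OE33 arrays detecting it, so the OE33 side lies at background. WNT4 and WNT3A were at least 13.3-fold and 12.5-fold lower, and the WNT receptor FZD7 was 5.39-fold higher.

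HOX genes, which set position along the body axis, were called in both directions. HOXB8 read 11.43, 10.53 and 11.23 in OE33 against 5.61, 4.53 and 5.22 in OE21, a difference of 5.94 (SE 0.33), and HOXB5 read 11.02, 9.82 and 10.96 in OE33 against 5.55, 5.34 and 5.55 in OE21. HOXB2 was at least 25.5-fold higher and HOXB6 5.39-fold. HOXC4 and HOXC13 were 5.51-fold and 5.24-fold lower, HOXD11 was at least 11.6-fold lower, and HOXC8 was 2.25-fold higher. Of the 39 listed genes 17 were tested, 7 were higher (41.2%) and 4 lower (23.5%, against 22.7% of all genes), and HOXB4, HOXC6, HOXC9 and HOXD3 were among those not called.

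Outside these lists, the largest difference among genes detected on all 6 arrays belonged to PLAAT3, a phospholipase, at 13.41, 13.42 and 13.50 in OE33 against 6.95, 6 and 6.42 in OE21, 127-fold higher. PTGES, a prostaglandin E synthase, read 11.09, 11.70 and 11.26 in OE33 against 5.83, 5.54 and 5.78 in OE21, 49.7-fold higher. Tropomyosin TPM2 was 37.4-fold, the apical sialoprotein PODXL 33.6-fold and HKDC1, a hexokinase-domain enzyme, 31.5-fold higher. RAB17 and MLPH, which serve apical recycling and vesicle transport, were at least 74.4-fold and 80.5-fold higher, and the surface proteins ICAM2 and MSLN at least 64-fold and 56-fold. Lower in OE33 were BEX3 by 49.9-fold, the cytoskeletal regulator DPYSL3 by 53.4-fold and the non-muscle myosin MYH10 by 36.8-fold. ACKR3, an atypical chemokine receptor, UCHL1, a ubiquitin hydrolase of neurons, and NDN, necdin, were at least 140-fold, 80.4-fold and 89.6-fold lower. On all 6 arrays, 24 genes were at least 16-fold higher and 37 at least 16-fold lower.

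Markers of other cell types were few. Of 11 leukocyte genes 2 were tested, of 8 endothelial genes 3, of 10 neural and neuroendocrine genes 3 and of 10 hepatocyte genes 2. The neural list and the endothelial list each had 1 gene called higher and 1 called lower in OE33. That is 33.3% each way, against 23.5% and 22.7% of all genes, so neither list had a common direction. The lower neural gene was TUBB3, a neuronal tubulin also made by carcinoma lines. TUBB3 read 9.04, 8.06 and 9.16 in OE33 against 11.65, 11.43 and 11.31 in OE21. CD68, a lysosomal protein of macrophages and other cells, was 1.89-fold lower.

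The direction of the differences was then read on the 6 STAT3 siRNA arrays, which share no culture with the controls. There 6496 of 11414 tested genes were called between OE33 and OE21. Of the 5223 genes called in control cells, 4556 (87.2%) were called there in the same direction, which is 70.1% of the 6496, and 2 were called in the opposite direction.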

How the data were processed

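Illumina BeadChips measured RNA of 3 OE33 control and 3 OE21 control cultures, grouped by the sample titles. The authors deposited a probe intensity per array on a linear scale, not normalised between arrays, with a detection p-value beside it, per the file headers. They also deposited normalised intensity values, with a method not given in the sources used here. Of 47323 probes 4 had a missing value and were left out. The platform annotation gives 30111 probes 1 symbol, and only these were named. Symbols were checked through gene identifiers against the GRCh38.p14 gene table, which matched 30072 and changed 0.

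The deposited intensity values of the 6 arrays were background-corrected and quantile-normalised to log2 values by the neqc function (limma 3.58.1, R 4.3.3), the background being inferred from the deposited detection p-values, with an offset of 16. Between 18199 and 19117 probes per array were detected at p under 0.01. A probe was tested when detected on at least 3 arrays, and the brightest probe stood for a gene. Lines were compared with lmFit and eBayes, two-sided, on 4 residual degrees of freedom, with Benjamini-Hochberg adjustment over all genes tested, and adjusted p under 0.05 was called. The fit was tested on simulated data. A gene detected on 0 arrays of a line has only a bound, for which the dim line took, per array, the lowest signal among detected probes or the probe's own if higher. An exact permutation test of 3 against 3 cannot go below 0.1. Precision is limited by having 3 arrays a line. All arrays carry 1 array identifier, so no slide batch could be tested. Deviations of same-numbered cultures had correlations of 0.04, 0.04 and -0.02, so the values showed no pairing by number. The labels do not say whether a number marks a shared day, so pairing remains unknown.

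The members of the comparison and the gene lists were chosen with earlier results of these data known. Named genes are, per list, up to 6 called members in each direction and up to 4 members that were not called, the 15 largest differences in each direction among genes detected on all 6 arrays, the 12 largest bounds in each direction, 8 genes with opposing probes, and the ends and top of runs of neighbours. CDH2, IRF9, ISG15, JAG2, MUC1, MX1, NFE2L2, NQO1, RIGI and SPRR2A were named outside that rule, after their values were seen. The alternatives tried were other normalisations, the authors' values, filters, probe averaging, array weights, a replicate block, a fit of all 12 arrays, the STAT3 siRNA arrays and leaving out each array.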

Additional observations from a re-analysis of the deposited data

How the results depend on the processing

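Of 11303 genes, 5223 were called. Other fits gave 3857 (only genes detected on all 6 arrays), 4877 (no filter on detection, 20045 genes), 5223 (quantile normalisation without background correction), 5278 (the authors' normalised values), 5326 (offset 50), 6060 (all 12 arrays) and 6865 (array weights), and leaving out 1 array gave 4120 (without OE21 control 3) to 5531 (without OE33 control 2). The size of differences depended on the background correction. At least 2-fold higher and lower were 762 and 785 genes without background correction and 779 and 814 with the authors' values, against 1528 and 1546. Testing only the 8802 genes detected on all 6 arrays left 1035 genes at least 2-fold higher and 841 at least 2-fold lower. That filter leaves out genes detected in 1 line only, of which the main fit held 363 for OE33 and 591 for OE21. With leave-one-out the counts were 2087 to 2794 higher, 2033 to 2737 lower, 1462 to 1573 at least 2-fold higher and 1514 to 1578 at least 2-fold lower.

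With the replicate number as a block, 4928 genes were called, 2516 higher and 2412 lower. That block changed the call of 1 of the genes named, COL1A2, which was called lower.

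Of 241 genes named, 9 lost their call under at least 1 alternative. FAM3C, FOXA2, IL1B, KRT18, KRT80, LAMB3, SERPINB8 and TGFBR2 lost it when 1 array was left out, and DST, whose probes disagreed, when only genes detected on all 6 arrays were tested. Signs turned in 11 genes, none of them called. CXCL8 gave -0.15 with array weights, -0.80 on the STAT3 siRNA arrays and -0.18 to 0.73 with leave-one-out, below 0 without OE21 control 1 (-0.15) or OE33 control 2. GSDMA gave 0.50 on the STAT3 siRNA arrays. KRT15 gave 0.16 with array weights and -1.16 to 0.50 with leave-one-out, above 0 without OE21 control 1. With array weights CRABP2 gave 0.24 and RDH11 -0.066, and on the STAT3 siRNA arrays CEACAM1 gave -0.81, HOXD3 0.17 and RDH11 -0.60. With leave-one-out CEACAM6 ran from -0.054 to 1.04, CRABP2 from -0.95 to 0.091, DHRS3 from -0.034 to 0.42, HOXC6 from -0.029 to 0.38, HOXC9 from -0.20 to 0.036 and RDH11 from -0.062 to 0.076. The cause was not tested.

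Some list counts moved with single arrays. Lower members of the unfolded protein response list numbered 1 to 6 with leave-one-out (6 without OE33 control 2), against 3 with all arrays, and without OE21 control 1, higher members of the antigen presentation list numbered 8, against 5. Lower G2 and mitosis genes numbered 5 without OE21 control 3 and 6 without OE21 control 2, against 10. Signal near background limits the genes given as bounds.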

Other observations

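Respiratory chain genes were called at 42.9%, against 46.2% of all genes. Of 28 tested, 2 were higher and 10 lower in OE33, and UQCRB, COX6C and NDUFV2 were 2.13-fold, 1.99-fold and 2.01-fold lower while SDHA was 1.97-fold higher. As each array was left out in turn, 1 to 4 were higher and 6 to 10 lower, and with the replicate number as a block 1 was higher and 7 were lower. Genes of the unfolded protein response were called at 26.9%, 4 of 26 higher and 3 lower, and 1 to 6 were lower with leave-one-out. Members went both ways: TRIB3 and CREB3L2 were 2.95-fold and 3.09-fold higher, and PHGDH, also on that list, was lower (difference -6.61). Of 34 tested JAK-STAT components, 7 were higher (20.6%) and 8 lower (23.5%), near the 23.5% and 22.7% of all genes. LIF, a cytokine of the interleukin-6 family, read 7.25, 7.44 and 7.24 in OE33 against 4.42, 4.84 and 4.89 in OE21, 6.02-fold higher, and IL6 itself was at least 4.82-fold lower. The receptor chains IL20RA and IL20RB went opposite ways: IL20RA was at least 4.26-fold higher and IL20RB 16.8-fold lower. DDX43, a helicase of the cancer-testis class, read 9.09, 9.71 and 8.96 in OE33 and was detected on none of the OE21 arrays, at least 26.1-fold higher. A run of 5 metallothionein genes from MT2A to MT1X was lower in OE33, with a median of -1.89, and these genes are near-identical, so their probes may share signal.

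Of 2942 genes with several detected probes, 24 had probes called in opposite directions. For RNLS, 1 probe read 6.31, 7.25 and 6.57 in OE33 against 5.08, 5.68 and 5.18 in OE21, a difference of 1.40, and another read 6.88, 6.56 and 6.73 in OE33 against 9.43, 8.94 and 8.97 in OE21, a difference of -2.39. ERCC1 had differences of 1.36 and -1.59. A single direction for these genes depends on which probe stands for them, and the cause of the disagreement was not tested.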
